A study of Mus musculus with 12 samples.

Results

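Mice with 1 mutant copy of Wfs1 were compared with the midpoint between mice with 0 and mice with 2 mutant copies, gene by gene, in RNA sequencing of the hypothalamus. The departure of a gene is its heterozygous mean minus the average of its wild-type and homozygous mutant means, on the log2 scale, so that 0 stands for an equal fold step with each mutant copy. Of the 24020 genes in the count table, 6133 had no count in any library, and the 10737 with enough counts were tested. By the design text the 12 libraries came from 4 wild-type, 4 heterozygous and 4 homozygous mutant individuals, all with the strain label Wfs1tm1Koks and with Wfs1 as the mutant gene. The growth protocol instead gives 5 animals per genotype for this tissue and speaks of both genotypes, not of 3, and the design text and the 12 count columns were followed. The labels used here state neither age nor sex. The labels do not say which stretch of the Wfs1 transcript the allele removes, so what the Wfs1 counts of homozygous mutants represent is not known. The homozygous column numbered 5 has no label of its number and was placed in its group by its genotype name. The homozygous mouse labelled 3 has no column of its number, and whether the column numbered 5 is that mouse is not stated.

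Wfs1 encodes wolframin, a glycoprotein in the membrane of the endoplasmic reticulum (ER) that takes part in calcium handling and in the response to misfolded protein. Loss of both copies in people causes Wolfram syndrome, with diabetes mellitus, optic atrophy and diabetes insipidus, the last of which involves vasopressin neurons of the hypothalamus. A missing copy of a gene often lowers its own transcript in proportion to the copies left, while the response of other genes to the shortage of a protein may be additive, recessive (the heterozygote is like the wild type) or dominant (the heterozygote is like the homozygous mutant). An arithmetic midpoint on the linear scale and a geometric midpoint on the log2 scale differ more, the larger the difference between the homozygotes.

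Total counts ran from 979394 to 2330872 per library. Levels are CPM, counts scaled to library size with trimmed-mean (TMM) factors. In a principal component analysis of log2 CPM, the first component held 42.5% of the variance. Homozygous replicates 4 and 5 stood apart from the others on it, at 46.3 and 54.5 against -34.0 to 9.01. The same libraries had the steepest slope of log2 level on transcript GC content, -0.101 and -0.106 log2 per percent against -0.0582 to -0.0233. The Y-linked genes Ddx3y, Eif2s3y, Kdm5d and Uty were counted in all 12 libraries, at 20 to 183 counts, and Xist had 0 to 7 counts. In heterozygous replicate 2, genes that differed between the homozygotes lay closer to the wild type than in the other heterozygous libraries, as given below with its values.

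Wfs1 (chromosome 5, 36966104 to 36989205, minus strand, GRCm38) was the gene called for a departure. Its level was 114, 138, 163 and 167 CPM in wild-type, 84.2, 81.8, 103 and 89.9 in heterozygous and 20.1, 17.5, 14.8 and 15.8 in homozygous mutant libraries, with replicates in the order 1, 2, 3 and 5 for wild-type, 1 to 4 for heterozygous and 1, 2, 4 and 5 for homozygous mutants. No library of a genotype overlapped one of another. The heterozygous mean was 61.5% of the wild-type mean, and the homozygous mutant mean was 11.7%. On the log2 scale the heterozygous level lay 0.83 above the midpoint (SE 0.136, 95% interval 0.55 to 1.11, adjusted p = 0.0317, edgeR quasi-likelihood test). All 4 heterozygous libraries were above the geometric midpoint of 49.9 CPM. The heterozygous group was 0.71 lower than wild-type on the log2 scale (SE 0.14, edgeR adjusted p = 0.0216), and the homozygous mutant group was lower than the heterozygous group by a further 2.36 (SE 0.18, edgeR adjusted p = 2.59e-08).

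On the linear scale the heterozygous values lay near the midpoint. The arithmetic midpoint for Wfs1 was 81.4 CPM, or 55.9% of the wild-type mean. The heterozygous mean of 89.6 ± 9.28 CPM (SD, n = 4) exceeded it by 8.22 CPM, with a 95% interval of -10.3 to 26.7 CPM (limma on CPM, adjusted p = 0.947). The log2 departure of Wfs1 passed the test on a scale of equal fold steps and was not detectable on a scale of equal CPM steps. Without any 1 of the 12 libraries the log2 departure was 0.76 to 0.88 and its edgeR adjusted p was 0.0318 to 0.414. The call held without wild-type replicate 3, wild-type replicate 5 or homozygous replicate 1, and was lost without each of the other 9 libraries. Without both homozygous replicates 4 and 5 the departure was 0.77 (edgeR adjusted p = 0.0523).

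**Figure D1:**
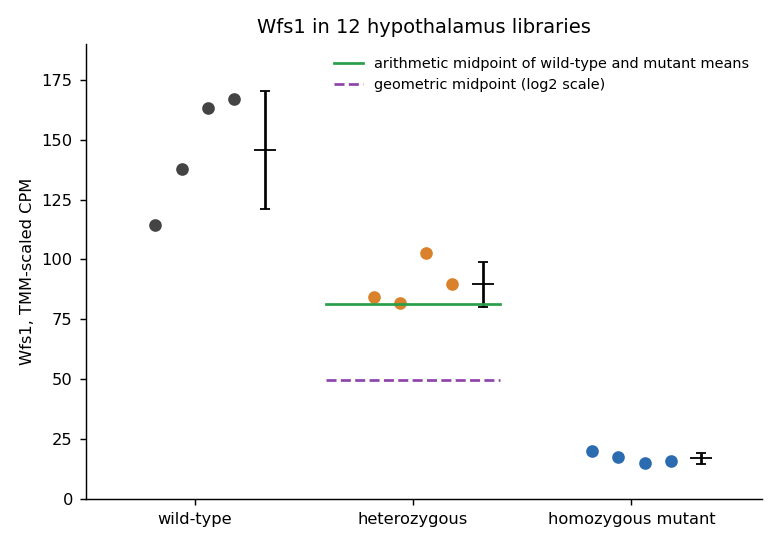
Wfs1 level in TMM-scaled CPM (vertical axis, from 0) in each of the 12 libraries by genotype, with the mean and SD of 4 libraries beside each group. The heterozygous libraries, at 81.8 to 103 CPM, sit at or above the arithmetic midpoint of 81.4 CPM and above the geometric midpoint of 49.9 CPM.

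Across all genes tested, the departure was called (Benjamini-Hochberg adjusted p under 0.05 over 10737 genes, edgeR) in 1 gene above the midpoint, which is 0.00931% of the genes, and in 0 genes below it. At an unadjusted p under 0.05, 253 genes were above the midpoint (2.36%) and 201 were below it (1.87%), together 4.23% of the genes. That share is no larger than the threshold of 0.05 would pass if no gene departed. DESeq2 also called 1 gene, and limma-voom called 0. With no filter on low counts, edgeR called 8 genes above the midpoint and 3 below it. Apart from Wfs1, the genes called there had nearly the same departure as with the filter and a smaller SE. The added calls rest on that narrower spread. The contrast between homozygous mutant and wild-type mice in the same fit called 2723 genes (25.4%), of which 1475 were higher in mutants (13.7%) and 1248 lower (11.6%). With upper quartile scaling that split was 1238 higher and 1575 lower, with the GC slope of each library as a covariate it was 344 and 116, and without homozygous replicates 4 and 5 it was 810 and 534. The heterozygous group differed from wild-type in 64 genes (0.596%) and from homozygous mutants in 236 genes (2.20%), and these contrasts share libraries with the departure. Both counts rest on single libraries. Heterozygous minus wild-type (55 higher, 9 lower) gave 3 higher and 0 lower when any 1 of wild-type replicates 2 and 3 and heterozygous replicates 3 and 4 was left out, and 156 higher and 62 lower without heterozygous replicate 2. Homozygous minus heterozygous (187 higher, 49 lower) gave 4 higher and 2 lower without heterozygous replicate 2, up to 560 higher (without homozygous replicate 1) and up to 335 lower (without homozygous replicate 2), and 0 and 1 both without homozygous replicates 4 and 5 and with the GC slope covariate.

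The precision of the departure limits what could be detected. Its median over all genes was 0.00 and its quartiles were -0.12 and 0.13 on the log2 scale. The median SE was 0.180, against 0.215 for the homozygous minus wild-type difference. The 95% interval reached 0.372 to either side of a gene's value at the median. In 10039 genes (93.5%) the whole interval lay within a 2-fold departure in either direction. That share was 76.4% in the 2685 genes with the lowest mean CPM (4.15 to 14.7 CPM) and 99.9% in the 2684 with the highest (above 87 CPM). That half-width is of an unadjusted interval, and a call after adjustment over all genes takes a larger departure.

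**Figure D2:**
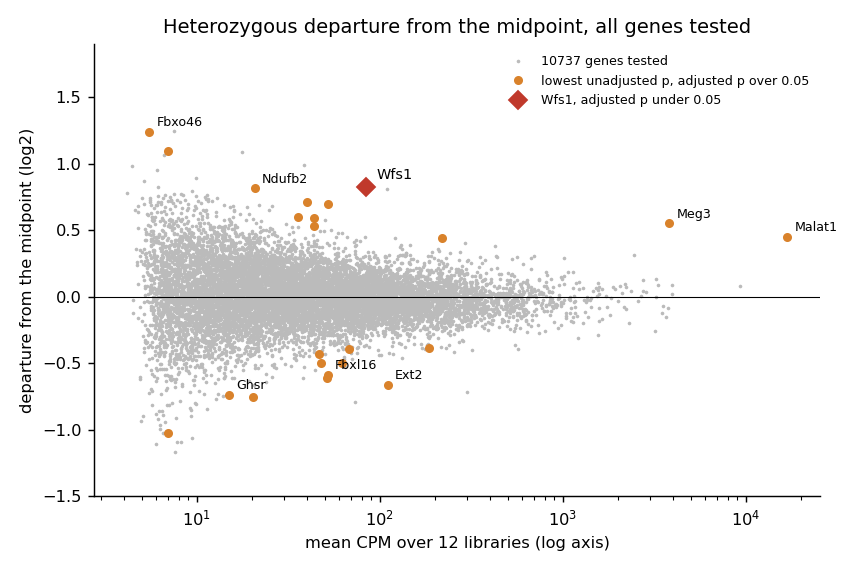
Departure from the midpoint (log2, vertical axis) against mean CPM over 12 libraries (log axis) for the 10737 genes tested. Wfs1, at 0.83, is marked as the gene with an adjusted p under 0.05, the genes with the lowest unadjusted p in each direction are in orange, and the spread of all genes narrows as the level rises.

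The genes that changed most between homozygous mutant and wild-type mice showed where the heterozygotes stood when the whole difference was large. Npm1 encodes nucleophosmin, a nucleolar protein of ribosome assembly, and measured 111, 144, 102 and 159 CPM in wild-type, 304, 228, 458 and 425 in heterozygous and 665, 500.1, 848 and 899 in homozygous mutant libraries. The 3 genotypes did not overlap. The whole difference was 2.49 on the log2 scale (edgeR adjusted p = 5.8e-08), and the departure was 0.20 (SE 0.168, 95% interval -0.14 to 0.55). Npm1 has processed pseudogenes, so the split of its reads is uncertain.

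Ppig, a nuclear peptidyl-prolyl isomerase with a domain that binds splicing factors, measured 211, 179.8, 144 and 209 CPM in wild-type, 398, 244, 550.1 and 488 in heterozygous and 729, 733, 989 and 1446 in homozygous mutant libraries. The genotypes were again separate, with heterozygous replicate 2 the lowest of its group. Ppig rose by 2.38 on the log2 scale in mutants (edgeR adjusted p = 4.1e-07), with a departure of -0.02 (SE 0.184, 95% interval -0.40 to 0.36). Avpr1a, a receptor for vasopressin, measured 3.67, 3.81, 1.46 and 3.73 CPM in wild-type, 9.0, 5.84, 6.59 and 7.22 in heterozygous and 11.4, 13, 22.2 and 22.6 in homozygous mutant libraries. It rose by 2.37 on the log2 scale (edgeR adjusted p = 0.000127) at a low level, and its departure was -0.04 (SE 0.377, 95% interval -0.82 to 0.74). Wild-type replicate 3 was the lowest library for Avpr1a, and the 3 genotypes did not overlap.

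The other genes with the largest rise were Hmgn5, a nucleosome-binding protein, Cdr1, and Tlr7, an endosomal sensor of single-stranded RNA. Their departures were 0.33, 0.29 and 0.24 on the log2 scale, with 95% intervals of -0.18 to 0.83, -0.02 to 0.61 and -0.58 to 1.07, all of which include 0. Without single libraries the departure of Tlr7 ran from -0.31 (without heterozygous replicate 3) to 0.53, that of Hmgn5 from 0.08 to 0.56 and that of Cdr1 from 0.19 to 0.40. Cdr1 ranged over 119.5 to 198 CPM in wild-type, 326 to 499 in heterozygous and 481 to 923 in homozygous libraries. Counts at Cdr1 can come from the circular RNA of the opposite strand, and the strand of the counting is not given in the sources used here. Tlr7 overlapped between heterozygous (2.63 to 12.5 CPM) and both other groups.

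Among genes that fell in mutants, Wfs1 had the largest fall, -3.07 on the log2 scale. Rn45s, the precursor of ribosomal RNA, which is transcribed from many copies, measured 1386, 1983, 1786 and 958 CPM in wild-type, 378, 788, 379 and 352 in heterozygous and 316, 352, 95.6 and 85.8 in homozygous mutant libraries. Its heterozygous libraries 1, 3 and 4 were near the 2 higher homozygous libraries, and heterozygous replicate 2 was more like the wild type than they were. The log2 departure of Rn45s was -0.28 (SE 0.282, 95% interval -0.86 to 0.31), and -0.64 without heterozygous replicate 2. On the linear scale its heterozygous mean of 474 CPM differed from the arithmetic midpoint of 870 CPM by -396 CPM, with a 95% interval of -648 to -143 CPM (limma, adjusted p = 0.932).

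Slc19a1, a folate carrier, ranged over 8.56 to 12.4 CPM in wild-type, 3.86 to 8.76 in heterozygous and 1.34 to 2.26 in homozygous libraries. Cyth2, an exchange factor for ARF proteins, ranged over 11.7 to 17.1, 3.66 to 10.3 and 1.13 to 4.04 CPM in the same order. Rnd2, a small GTPase, and Pard6b, a polarity protein, were below 5 CPM in every homozygous library. Departures of these 4 genes were 0.42, 0.27, 0.44 and 0.73 on the log2 scale, each with a 95% interval that includes 0. They moved with single libraries. The departure of Rnd2 ran from 0.14 (without heterozygous replicate 2) to 1.28 (without homozygous replicate 2), and that of Slc19a1 from 0.09 (without heterozygous replicate 2) to 0.57 (without heterozygous replicate 1). For Cyth2 the range was 0.13 (without heterozygous replicate 1) to 0.47 (without heterozygous replicate 3), and for Pard6b 0.42 to 0.93.

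**Figure D3:**
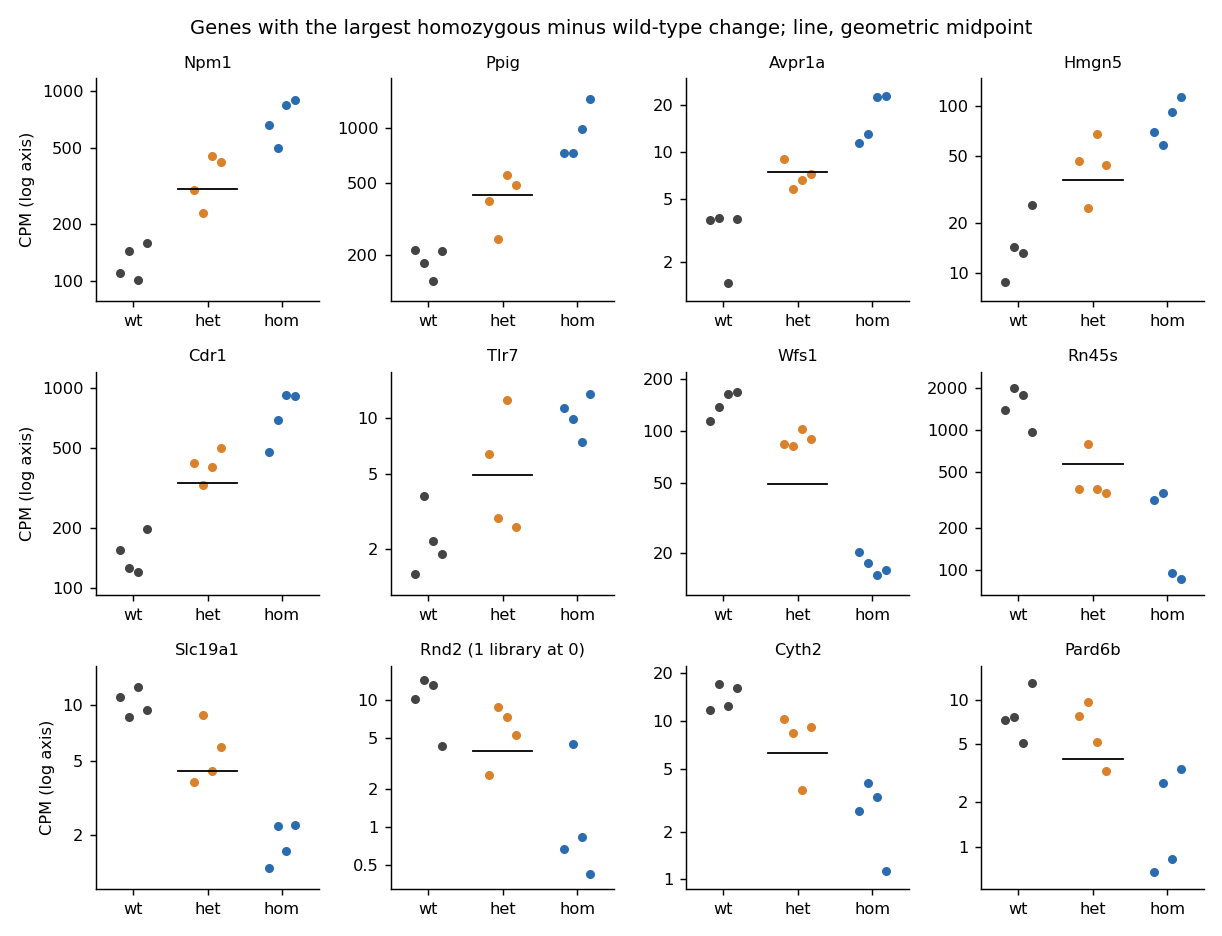
CPM on log axes for the 12 genes with the largest called differences between homozygous mutant (hom) and wild-type (wt) mice, 1 point per library, with the geometric midpoint as a line over the heterozygous (het) group. All 4 heterozygous points of Wfs1 lie above the line, every other panel has at least 1 heterozygous point below it, and the library of Rnd2 at 0 is drawn at the lowest position of its panel.

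Over the 2723 genes called between homozygous mutants and wild-type, the position of the heterozygous mean (0 at wild-type, 1 at homozygous mutant, log2 scale) had a median of 0.443 and quartiles of 0.301 and 0.585. In 1963 genes (72.1%) it lay between 0.25 and 0.75. It was below 0 in 65 genes, 0 to 0.25 in 443, 0.75 to 1 in 216 and above 1 in 36. For the 611 genes that differed over 2-fold, 491 (80.4%) lay between 0.25 and 0.75, with a median of 0.444. These positions rest on which genes are called, 2723 here against 344 higher and 116 lower with the GC slope covariate, where the median was 0.590. They are a description, since the wild-type libraries enter both the numerator and the denominator.

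The middle of the positions moved with single libraries. The median over the called genes was 0.489, 0.189, 0.585 and 0.503 in heterozygous replicates 1 to 4 taken one at a time (SD 0.174). Replicate 2 was the low one, and without it the median of the group was 0.545. Without both homozygous replicates 4 and 5 the median was 0.562. The median thus fell on either side of 0.5 with the libraries used, and leaving out any 1 library gave 0.376 to 0.545.

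The scale moved genes that rose and genes that fell in opposite directions. Arithmetic fixes that direction for any heterozygous level between the homozygotes, so the direction is not a result about these genes. On the log2 scale the median position was 0.449 for genes higher in mutants and 0.436 for genes lower in mutants. On the linear scale it was 0.378 and 0.513. Over all called genes both scales gave a median of 0.44.

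For single genes the intervals were often too wide to tell additive from recessive or dominant. Among the 611 genes over 2-fold, the 95% interval of the departure left out both homozygous levels in 298 (48.8%). It reached the wild-type level alone in 197, the homozygous mutant level alone in 80, and both in 36. The homozygous levels were taken at their estimates, without their error, in genes selected for a large difference. The share that left out both levels can therefore be too high.

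**Figure D4:**
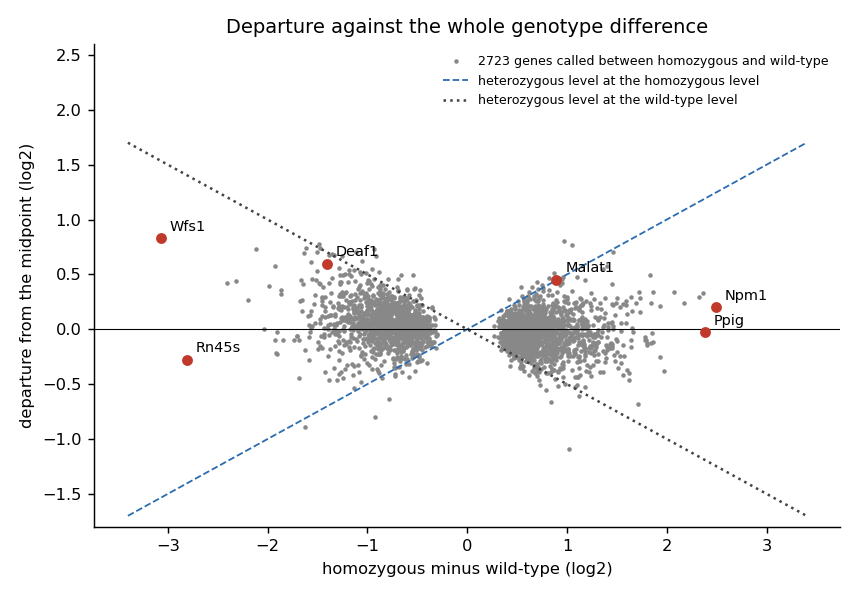
Departure (log2, vertical axis) against the homozygous minus wild-type difference (log2, horizontal axis) for the 2723 genes called for that difference. Dotted and dashed lines mark a heterozygous level equal to wild-type and to homozygous mutant, and 1963 genes have a position between 0.25 and 0.75, around the horizontal line at 0.

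In 106 genes (0.987% of those tested) the 12 libraries were ordered without overlap, every wild-type library below every heterozygous one and every heterozygous library below every homozygous one. The reverse order held in 43 genes (0.400%). All 149 were among the genes called between the homozygotes, and their positions had a median of 0.484 with a range of 0.23 (Wfs1) to 0.77. The order by itself requires separate homozygotes with the heterozygous libraries between them. The calls and the intermediate positions thus follow from the selection. Hsp90b1, the ER chaperone GRP94, was one of them and measured 560.3, 636, 717 and 866 CPM in wild-type, 1025, 892, 1143 and 1161 in heterozygous and 1455, 1404, 2081 and 1849 in homozygous mutant libraries. Its departure was -0.04 (SE 0.121, 95% interval -0.29 to 0.21). Pdia3, an ER protein disulfide isomerase, measured 215 to 254 CPM in wild-type, 265 to 415 in heterozygous and 451 to 790.0 in homozygous libraries, with a departure of -0.12 (95% interval -0.40 to 0.17).

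Of the 28 unfolded protein response genes tested, 2 rose without overlap (Hsp90b1 and Pdia3) and 0 fell. Of the 245 pathway genes tested, 6 rose and 2 fell in this way, and of the 111 marker genes 1 rose and 0 fell. The shares over all genes tested were 0.987% rising and 0.400% falling. Hsp90b1 and Pdia3 were named here after their values were seen, as were the other members of the pathway and marker lists in this order. Those that rose with mutant copies were Avpr1a (above), Npy2r (a receptor for neuropeptide Y), Atp5b (the beta subunit of mitochondrial ATP synthase), Klf9 (a transcription factor that responds to glucocorticoids) and Aldoc (an aldolase of astrocytes). Klf9 measured 103, 114, 94 and 120.0 CPM in wild-type, 141, 134, 169.9 and 186 in heterozygous and 286, 224, 347 and 376 in homozygous mutant libraries. The position of Klf9 was 0.36, and its departure was -0.21 (SE 0.134, 95% interval -0.48 to 0.07). Trh, the precursor of thyrotropin-releasing hormone, fell with mutant copies and measured 52.8, 72.3, 87.4 and 59.7 CPM in wild-type, 37.3, 45.9, 42.5 and 39.4 in heterozygous and 28.8, 31.9, 37.1 and 30.5 in homozygous mutant libraries. Its departure was -0.17 (SE 0.154, 95% interval -0.49 to 0.15). Stat5b, a transducer of growth hormone signals, fell as well, from 33.6 to 55.4 CPM in wild-type through 25.6 to 28.6 to 18.1 to 22.1.

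Outside the range of both homozygotes, all 4 heterozygous libraries were above all 8 others in 19 genes (0.177%) and below all 8 others in 14 genes (0.130%). Some genes of this kind arise by chance for any 4 of 12 libraries, and that number was not computed here. None of these genes passed the test of the departure at an adjusted p under 0.05 (edgeR). Those above with the lowest p were Fbxo46, an F-box subunit of a ubiquitin ligase, Cdc37, a co-chaperone that brings kinases to Hsp90, and Hnrnpc, a protein that binds nuclear pre-mRNA. Fbxo46 measured 7.33, 5.71, 2.91 and 4.97 CPM in wild-type, 7.71, 10.4, 8.06 and 9.19 in heterozygous and 4.02, 3.59, 0.824 and 1.13 in homozygous mutant libraries. Its departure was 1.24 (SE 0.329, 95% interval 0.56 to 1.92), with an unadjusted p of 0.000962 and an adjusted p of 0.982 in edgeR. Cdc37 measured 41.8, 25.7, 40.1 and 42.9 CPM in wild-type, 61.1, 53.4, 56.4 and 57.8 in heterozygous and 49, 41.3, 27.2 and 29.4 in homozygous mutant libraries. Wild-type replicate 2 and homozygous replicates 4 and 5 were its lowest libraries. Hnrnpc, which has pseudogenes that could take or give reads, had a departure of 0.53 (95% interval 0.23 to 0.83).

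Vegfa, the vascular endothelial growth factor, was also in this group and was singled out after its values were seen. It measured 34.5, 50.4, 54.7 and 51.6 CPM in wild-type, 58.5, 57.6, 73.2 and 63.7 in heterozygous and 55, 54.8, 37.9 and 42.9 in homozygous mutant libraries, and its departure was 0.39 (SE 0.148, 95% interval 0.08 to 0.70). The departure had an unadjusted p of 0.015 and an adjusted p of 0.982 (edgeR), and other genes of this group, not described here, had a lower p. The difference between the homozygous groups of Vegfa was 0.02 on the log2 scale.

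Some long noncoding RNAs had a departure above 0 at a low unadjusted p. Meg3, a maternally expressed imprinted RNA, measured 2584, 2644, 3463 and 3827 CPM in wild-type, 5626, 3727, 5004 and 4977 in heterozygous and 4791, 4026, 2568 and 2485 in homozygous mutant libraries. Homozygous replicates 1 and 2 were in the heterozygous range and replicates 4 and 5 were below every wild-type library. The departure of Meg3 was 0.55 (SE 0.148, 95% interval 0.25 to 0.86), with an unadjusted p of 0.00106 and an adjusted p of 0.982 (edgeR). Without the filter on low counts the departure of Meg3 was called, at 0.56 (SE 0.0969, edgeR adjusted p = 9.99e-05). The estimate was nearly the same there, and the SE was smaller than the 0.148 of the filtered fit. Malat1, an abundant RNA of nuclear speckles, measured 9190, 10123, 9737 and 13826 CPM in wild-type, 20269, 14423, 25558 and 19628 in heterozygous and 24256, 21725, 16332 and 17201 in homozygous mutant libraries. Its heterozygous level was 0.90 higher than wild-type on the log2 scale (edgeR adjusted p = 0.0071), and its homozygous level was 0.89 higher (adjusted p = 0.000251). The heterozygous and homozygous ranges of Malat1 overlapped, its position was 1.01, and its departure of 0.45 (SE 0.128, 95% interval 0.19 to 0.72) had an edgeR adjusted p of 0.982. Without the filter it too was called, at 0.46 (SE 0.09 against 0.128 with the filter, edgeR adjusted p = 0.0011).

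Deaf1, a transcription factor, stood on the opposite side, with heterozygous levels near those of the wild type. It measured 49.1, 42.8, 49.5 and 46.6 CPM in wild-type, 44.4, 46.7, 34.4 and 49.2 in heterozygous and 22.1, 21.5, 9.89 and 14.7 in homozygous mutant libraries. Heterozygous replicate 3 was below the wild-type range and the other heterozygous libraries were inside it. The homozygous group was -1.40 from wild-type on the log2 scale (edgeR adjusted p = 8.44e-05) and lower than the heterozygous group by 1.3 (edgeR adjusted p = 0.00575). Its position was 0.07, and its departure of 0.60 (SE 0.170, 95% interval 0.25 to 0.95) had an edgeR adjusted p of 0.982. The remaining genes with the lowest unadjusted p above the midpoint were Rgs16, Sgk1, Tyk2, Tmem127 and Ndufb2, with departures of 0.71, 0.70, 1.10, 0.44 and 0.82. Without the filter Rgs16 and Sgk1 were called (edgeR adjusted p = 0.0371 and 0.014). Their SE were then 0.169 and 0.157, against 0.197 and 0.196 with the filter. Ndufb2, a subunit of mitochondrial complex I, had 1 wild-type library (replicate 2) at 2.85 CPM and the others at 16 to 18 CPM.

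Below the midpoint, Fbxl16, an F-box protein, had the lowest p. It measured 55.7, 59.9, 64.1 and 48.5 CPM in wild-type, 34.1, 37.5, 38.8 and 44 in heterozygous and 53, 52.5, 58.5 and 75.6 in homozygous mutant libraries. All heterozygous libraries were below all others, and the homozygous groups differed by 0.05 on the log2 scale. The departure of Fbxl16 was -0.59 (SE 0.147, 95% interval -0.89 to -0.28), with an unadjusted p of 0.000569 and an adjusted p of 0.982 (edgeR). Rheb, the small GTPase that activates mTORC1, measured 88.7, 63.7, 69.95 and 59.7 CPM in wild-type, 46.3, 48.8, 48.3 and 50.5 in heterozygous and 59, 54.3, 70.8 and 88.1 in homozygous mutant libraries. Its departure was -0.50 (SE 0.150, 95% interval -0.81 to -0.19). Ghsr, the receptor for ghrelin, measured 15.4, 17.1, 13.1 and 18 CPM in wild-type, 10.9, 10.01, 9.52 and 10.5 in heterozygous and 14.1, 16.2, 25.5 and 19.2 in homozygous mutant libraries. Its heterozygous libraries were the 4 lowest, and its departure was -0.74 (SE 0.223, 95% interval -1.20 to -0.28).

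Galntl1, Tmem74, Stt3a and Dpy19l3 also had every heterozygous library below all others. Stt3a is a catalytic subunit of the oligosaccharyltransferase of the ER. Stt3a ranged over 34.7 to 43 CPM in heterozygous libraries, 47.9 to 60.1 in wild-type and 44.5 to 53 in homozygous mutants, a departure of -0.43 (95% interval -0.72 to -0.15). Adipor1 (an adiponectin receptor), Tmem144, Ext2 (a heparan sulfate polymerase) and Kbtbd7 overlapped other groups and had departures of -0.61, -0.76, -0.66 and -0.50. Each of these 11 genes had an edgeR adjusted p of 0.982. Ext2 was called without the filter (-0.65, SE 0.14 against 0.212 with the filter, edgeR adjusted p = 0.00932).

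**Figure D5:**
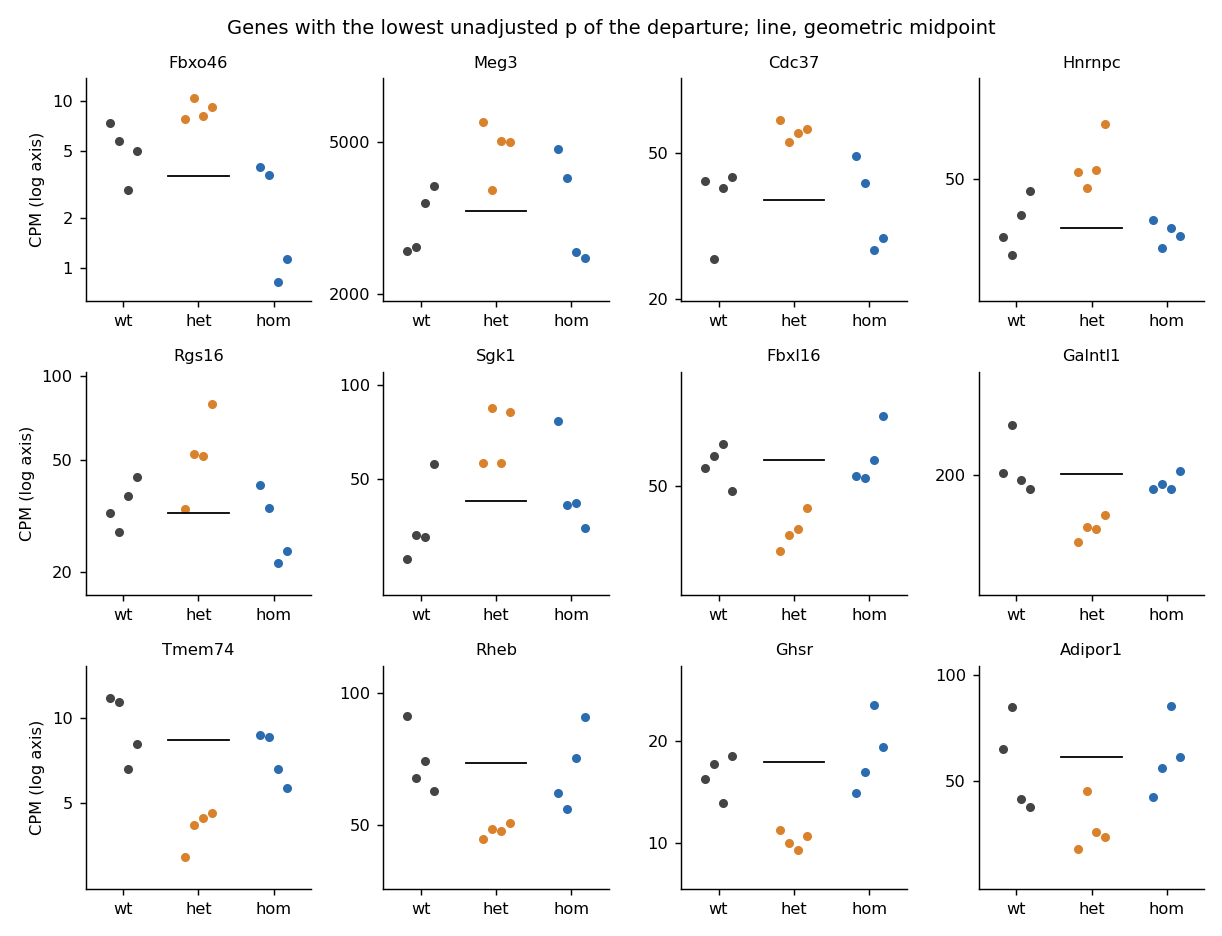
CPM on log axes in each library for the 6 genes above and the 6 below the midpoint with the lowest unadjusted p of the departure, Wfs1 left out, with the geometric midpoint as a line. The heterozygous (het) points of Fbxo46, Cdc37, Hnrnpc, Fbxl16, Galntl1, Tmem74, Rheb and Ghsr lie outside the range of the other 8 libraries, and no gene shown passed at an adjusted p under 0.05.

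The 12 pathway lists held 283 genes, of which 245 were tested. None was called for a departure (all genes tested, 0.00931% called). At an unadjusted p under 0.05, 8 were above and 5 below the midpoint, together 5.31% against 4.23% of all genes. The median departure of a list ran from -0.08 (GABA and glutamate transmission) to 0.21 (immediate early genes), against 0.00 over all genes. The unfolded protein response, the pathway most often tied to wolframin, had 28 genes tested, of which 0 were called and 0 had an unadjusted p under 0.05. Its departures ran from -0.32 (Derl1, a channel for retrotranslocation) to 0.27 (Manf, a secreted ER stress factor) with a median of -0.07. Of the 28 genes, 9 were called between the homozygotes, beside 25.4% of all genes tested. ER calcium genes and wolframin partners had 21 genes tested and a median of 0.02. Ryr1 and Ryr2, calcium release channels, departed by -0.92 and 0.25 with unadjusted p of 0.0397 and 0.0499 (edgeR adjusted p = 0.982 for each).

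Hypothalamic neuropeptides had 21 genes tested, none with an unadjusted p under 0.05, and a median departure of 0.08. They ran from -0.89 (Pdyn, the dynorphin precursor) to 0.29 (Cartpt). Their receptors had 25 tested and a median of -0.03. Oxtr, the oxytocin receptor, measured 23.5, 18.1, 8.02 and 17.4 CPM in wild-type, 12.9, 15.4, 16.1 and 11.8 in heterozygous and 31.5, 23.8, 26.4 and 41.8 in homozygous mutant libraries. It rose by 0.84 on the log2 scale in mutants (edgeR adjusted p = 0.0216), while its heterozygous range lay inside the wild-type range, and its departure was -0.66 (SE 0.238, 95% interval -1.15 to -0.17), with an edgeR adjusted p of 0.982. Prohormone processing and granule genes had 21 tested, with departures of -0.09 to 0.18, the narrowest range of any pathway list.

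Immediate early genes, transcribed within minutes of neuronal activity, had 12 tested, with departures from -0.44 (Btg2) to 0.63 (Jund). An unadjusted p under 0.05 was found for 3 of them, Jund, Fos and Egr1, all above the midpoint. Fos had low counts in homozygous mutants, at 12, 28, 16 and 2. Fos measured 16.9, 19, 18.2 and 27.4 CPM in wild-type, 19.3, 22.5, 20.5 and 18.4 in heterozygous and 8.05, 12.6, 13.2 and 2.26 in homozygous mutant libraries. The homozygous group was lower than wild-type by 1.08 on the log2 scale (edgeR adjusted p = 0.0117), the heterozygous range lay within that of wild-type, and the departure was 0.52 (SE 0.238, 95% interval 0.03 to 1.01), with an edgeR adjusted p of 0.982. Oxidative phosphorylation had 29 tested and a median of 0.05. Cox4i1, a subunit of cytochrome c oxidase, measured 166, 94.2, 160.3 and 167 CPM in wild-type, 148, 151, 113 and 158 in heterozygous and 95.9, 97.9, 52.7 and 42.9 in homozygous mutant libraries. The homozygous group was lower than wild-type by 0.98 (edgeR adjusted p = 0.00189), the position was 0.05, and the departure was 0.44 (SE 0.175, 95% interval 0.08 to 0.80). Wild-type replicate 2 of Cox4i1 was in the homozygous range. Atp5o in the same list departed by 0.38 (unadjusted p = 0.0295, edgeR adjusted p = 0.982).

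Among GABA and glutamate genes (25 tested), Gabra5, the alpha 5 subunit of the GABA-A receptor, rose in mutants by 0.64 (edgeR adjusted p = 0.00838) and was at 78 to 122 CPM in wild-type, 83.4 to 122 in heterozygous and 118 to 203 in homozygous libraries. Its departure was -0.31 (SE 0.148, 95% interval -0.61 to -0.00). Glucocorticoid response genes (17 tested) had a median of 0.12, led by Sgk1, a kinase induced by corticosteroids, which measured 27.9, 33.3, 32.8 and 55.9 CPM in wild-type, 56.6, 84.3, 56.4 and 82 in heterozygous and 76.4, 41.3, 42 and 35 in homozygous mutant libraries. Homozygous replicate 1 of Sgk1 lay in the heterozygous range. Heat shock (13 tested), the circadian clock (18) and the growth hormone, IGF and insulin axis (17) had medians of 0.07, 0.05 and -0.03. Dbp departed by -0.43 and Igf2r by 0.27, with unadjusted p of 0.0434 and 0.0428 (edgeR adjusted p = 0.982 for both).

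Markers of cell types and regions were read beside these values, because fewer cells of a type and less RNA per cell cannot be told apart in whole tissue. The 13 marker lists held 162 genes, of which 111 were tested and 0 called, with 2 above and 5 below the midpoint at an unadjusted p under 0.05 (6.31%). Transcription factors of the hypothalamus had 12 of 18 tested, and their summed level was 274 to 321 CPM in wild-type, 291 to 353 in heterozygous and 326 to 378 in homozygous libraries. Astrocyte markers had 16 of 16 tested and a median departure of -0.03. Aqp4, the water channel of astrocyte endfeet, measured 229, 173, 138 and 163 CPM in wild-type, 195, 189, 183 and 169 in heterozygous and 225, 251, 463 and 387 in homozygous mutant libraries. It rose by 0.91 in mutants (edgeR adjusted p = 0.00112) with a position of 0.07 and a departure of -0.39 (SE 0.160, 95% interval -0.72 to -0.06), and homozygous replicates 4 and 5 were its highest libraries.

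Wfs1 is also strongly expressed in parts of the telencephalon. The summed level of the telencephalon and striatum markers (12 of 15 tested) was 500 to 598 CPM in wild-type, 568 to 640 in heterozygous and 631 to 873 in homozygous libraries, with a median departure of -0.07. The lowest member was Tbr1, at -0.77 (unadjusted p = 0.0106, edgeR adjusted p = 0.982). This sum was higher with mutant copies, with overlap between neighbouring genotypes. The median homozygous minus wild-type change of its members was instead -0.12 on the log2 scale. Of the 12 members tested, 2 were called for that change, beside 25.4% of all genes. The part of such tissue in the Wfs1 value was not tested. Thalamus markers (10 of 12 tested) held Rgs16 and Prkcd, both above the midpoint. Prkcd was at 10.3, 13.8, 6.59 and 81.4 CPM in heterozygous libraries, and without replicate 4 its departure was -0.28. Over all 12 libraries the departure of Prkcd was 1.09 (SE 0.51, edgeR adjusted p = 0.982). It was called without the filter on low counts (1.10, edgeR adjusted p = 0.0129), where the SE was 0.241. The summed thalamus level was 956 to 1145 CPM in wild-type, 1046 to 1442 in heterozygous and 1155 to 1514 in homozygous libraries. Meningeal markers (4 of 9 tested) had a median departure of -0.45 and sums of 259 to 1005, 175 to 320 and 147 to 661 CPM in the same order.

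Medians of the other marker lists were -0.02 for oligodendrocytes and myelin (16 tested), -0.02 for their precursors (8), 0.00 for microglia (8), -0.06 for endothelium and pericytes (12), 0.02 for ependyma and tanycytes (6), 0.35 for choroid plexus (3), -0.01 for blood (2) and 0.23 for pituitary (2). Members of these lists with an unadjusted p under 0.05 were Cldn11, a tight junction protein of myelin, at -0.41, and P2ry12, a purine receptor of microglia, at -0.51 (edgeR adjusted p = 0.982 for both). Slc1a2, the main glutamate transporter of astrocytes, departed by -0.26 (unadjusted p = 0.0195, edgeR adjusted p = 0.982).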

How the data were processed

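Per the labels' protocols, hypothalamic total RNA was amplified as cDNA (NuGEN Ovation) and read on a SOLiD 5500xl. Per the submitters' processing notes the genome build was mm10. Aligner, counting tool, annotation and strand: not given in the sources used here. Raw counts per gene symbol were deposited by the authors for 12 libraries, 4 per genotype. The table's numbering skips 58 lines, and 955 lines of repeated symbols, which carry a suffix, stayed separate. Libraries held 979394 to 2330872 counts, which limits precision at low levels.

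Counts were analysed with edgeR 4.0.16 in R 4.3.3: TMM factors (0.908 to 1.08), the default filter by group, and quasi-likelihood F tests in 1 fit of all 12 libraries on genotype, with the contrast heterozygous minus the mean of wild-type and homozygous mutant. The common biological coefficient of variation was 0.148. Adjusted p are Benjamini-Hochberg over 10737 genes, and SE is the log2 value divided by the square root of F. The linear contrast used limma 3.58.1 on CPM divided by each gene's mean. Alternatives were DESeq2 1.42.0, limma-voom with and without quality weights, upper quartile scaling (for pairs of genotypes, chosen after seeing the data), no filter beyond 1 count, a filter at 5 CPM in 4 libraries, GC terms (for the median position also chosen after seeing the data), a replicate block and left-out libraries. The analysis was tested on simulated counts.

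Symbols were matched to GENCODE M21 (GRCm38): 20717 directly, 1895 by an older symbol, 1408 not at all. The members, lists and tests were chosen with earlier results of these data known. Genes are named by rule: Wfs1, 12 genes above and 12 below the midpoint (called, or else by lowest p), the 6 largest called homozygous minus wild-type changes each way, and up to 3 genes per list with an unadjusted p under 0.05. Vegfa and the other genes marked as such in the text were instead picked after their values were seen. Left out were provisional models, repeated symbols, pseudogene names and genes averaging below 1 CPM, and 1 gene below the midpoint is not reported here.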

Additional observations from a re-analysis of the deposited data

Results flagged for a closer look

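Single libraries stood apart from the other 3 of their group (a gap wider than Dixon's 95% limit for 4 samples) in 9 of 165 groups examined for the named genes, and chance gives about 1 in 20. Of the genes in the departure lists, Ext2 was at 122 CPM in heterozygous replicate 2 against 62.3 to 66.9 in the others of the group. Sgk1 was at 76.4 CPM in homozygous replicate 1 against 35.0 to 42.0. Wild-type replicate 2 was the low library for Ndufb2 (2.85 CPM against 16 to 18), Cdc37 (25.7 CPM against 40.1 to 42.9) and Cox4i1 (94.2 CPM against 160 to 167). Avpr1a was at 1.46 CPM in wild-type replicate 3 against 3.67 to 3.81. Prkcd was at 81.4 CPM in heterozygous replicate 4 against 6.59 to 13.8. Rn45s was at 788 CPM in heterozygous replicate 2 against 352 to 379. The Y-linked gene Eif2s3y was at 31.6 CPM in homozygous replicate 5 against 24.8 to 25.5.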

How the results depend on the processing

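The departure of Wfs1 stayed above 0 in every alternative. It was not called with limma-voom (0.82, adjusted p = 0.0943), with voom and quality weights (0.81, adjusted p = 0.102), without both homozygous replicates 4 and 5 (0.77, adjusted p = 0.0523) or on the linear scale (0.0978 of the mean level, adjusted p = 0.947), and without single libraries it ran from 0.76 to 0.88. The cause was not tested. Genes called above the midpoint were 0 with both voom fits, on the linear scale and without both homozygous replicates, and 0 to 1 without single libraries. With no filter 8 were above and 3 below. With the replicate block 3 were above (Wfs1, Slc6a3 and Aldh1a1), and leaving out single libraries gave 0 below throughout. After the mean of each genotype was subtracted from log2 CPM, the deviations of same-numbered libraries correlated at -0.27 to 0.34. The correlation was over 0.1 in 1 of 9 pairs, and the deviations of 4 of 12 libraries correlated best with their own number. The labels do not say whether a number marks a shared litter, day or batch, and these correlations cannot decide it. Among named genes not called in the filtered edgeR fit, the sign turned without single libraries for Prkcd (-0.28 without heterozygous replicate 4, up to 1.5 otherwise), Tlr7 (-0.31 to 0.53), Ppig (-0.18 to 0.17), Avpr1a (-0.17 to 0.07) and Kdm5d (-0.01 to 0.19). On the linear scale it turned for Cdr1, Cyth2, Hmgn5, Npm1, Rnd2, Slc19a1 and Tlr7. Tlr7 also turned with both voom fits, Ppig and Avpr1a with voom and quality weights and with the block, Ppig with the GC and length offset, and Ppig, Avpr1a and Uty without both homozygous replicates and with the GC slope covariate.

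Counts for the pairs of genotypes moved more. Homozygous minus wild-type gave 810 higher and 534 lower without both homozygous replicates, 344 and 116 with a GC slope covariate, and 1074 to 1638 higher and 782 to 1438 lower without single libraries. Heterozygous minus wild-type (55 higher, 9 lower) gave 182 and 40 with DESeq2, 225 and 55 with no filter, 298 and 132 without both homozygous replicates, 121 and 34 with a GC and length offset, 188 and 72 with the GC slope covariate, and 16 lower with the block. Without single libraries it gave 3 to 156 higher and 0 to 62 lower, the highest without heterozygous replicate 2. Homozygous minus heterozygous (187 higher, 49 lower) gave 333 and 96 with DESeq2, 501 and 226 with no filter, 11 and 4 with the block, and 0 higher and 1 lower both without the 2 homozygous replicates and with the GC slope covariate. Without single libraries it gave 4 to 560 higher and 2 to 335 lower. At 4 libraries per group, depth limits the departure most below 14.7 CPM.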

Other observations

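Aldh1a1, a retinaldehyde dehydrogenase found in a subset of dopamine neurons, and Slc6a3, the dopamine transporter, were not called for the departure by the filtered edgeR fit (adjusted p = 0.982 for each) but passed when no filter was used (edgeR adjusted p = 6.23e-05 for Aldh1a1 and 0.000949 for Slc6a3) and when the replicate number was a block (edgeR adjusted p = 0.0408 for each). Both were singled out after their values were seen. Without the filter their SE were 0.136 and 0.191, against 0.25 and 0.498 with it, at nearly the same departures. The mean of Aldh1a1 was 60.4 ± 35.2 CPM for wild-type, 149 ± 69 for heterozygous and 120 ± 30.1 for homozygous mutant libraries (SD, n = 4 each), a departure of 0.81 (SE 0.25). Slc6a3 was at 23.0 ± 17.4, 56.7 ± 48.0 and 35.5 ± 34.4 CPM in the same order, with a departure of 0.99 (SE 0.498), and its SD was close to its mean in each group. Ptgds, the prostaglandin D synthase of meninges and choroid plexus, and Igf2, a growth factor of the same coverings, passed below the midpoint in the unfiltered fit. The mean of Ptgds was 435 ± 348 CPM for wild-type, 202 ± 64.1 for heterozygous and 257 ± 218 for homozygous mutant libraries. Igf2 was at 81.5 ± 49.1, 47.7 ± 29.2 and 90.8 ± 102 CPM. Their SE were 0.136 and 0.171 without the filter, against 0.366 and 0.434 with it, at nearly the same departures.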
